A study of Mus musculus with 2 samples.

Results

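The genes for A20, for its ABIN partners and for the enzymes that build or remove linear ubiquitin chains were described in the nuclear RNA of mouse macrophages. They were 10 of 55536 annotated genes and were chosen by name, not by any measured value. They were Tnfaip3 (A20), Tnip1, Tnip2 and Tnip3 (the ABIN proteins), Rnf31, Rbck1 and Sharpin (the linear ubiquitin chain assembly complex, LUBAC), and the deubiquitinase genes Otulin, Cyld and Otud7b. All 10 were found in the gene-level table of each library, and their 82 annotated transcripts, of 141767 in all, were found in both kinds of transcript table. Every one of the 10 genes had at least 100 counts in each library, so none was lost to a filter.

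Macrophages were grown from bone marrow of the C57BL/6J strain. They were exposed to lipid A, the part of endotoxin that Toll-like receptor 4 detects, at 100 ng/ml for 12 h, cleared of it for another 12 h, and exposed again at 100 ng/ml for 50 min. Ribosomal RNA was depleted from nucleoplasmic RNA (the labels also call the fraction nuclear), and 2 libraries of this 1 group were sequenced as biological replicates 1 and 2. No unstimulated or singly stimulated cells were analysed here, so levels are described and no response to lipid A is. Age and sex of the animals are not recorded, both libraries carry the same donor entry, and no label names separate cultures, so the SDs below measure only the spread between these libraries, which may be technical. The RNA input was 500 ng for replicate 1 but 1 µg for replicate 2, and a difference between replicates cannot be told apart from one of input.

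A20 is a ubiquitin-editing enzyme that restrains NF-kB signalling and cell death downstream of Toll-like and tumour necrosis factor receptors, and its gene is a classic NF-kB target in macrophages. The ABIN proteins bind ubiquitin chains and, in part, A20 itself. LUBAC joins ubiquitins head to tail into linear chains on signalling complexes, OTULIN cuts only such chains, and CYLD cuts linear chains along with other kinds, so these enzymes set how long a receptor complex keeps signalling.

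The 2 libraries held 20612108 and 22772111 counts, a depth at which a gene with a count of 0 could still reach 0.146 and 0.132 CPM, the count scaled to library size (from 3 counts). They differed by more than counting error, with chi-square divided by its degrees of freedom at 64.8 for 13831 genes, and the common coefficient of variation between them was 0.234. Protein-coding genes took 21% and 22% of TPM (the deposited level per length, which divides counts by effective length). All 10 markers of macrophages exceeded the protein-coding median and summed to 2258 and 2280 TPM. Marker lists of the other 8 cell types checked had no gene above that median, none summed to more than 1.63 TPM in a library, and all 4 natural killer cell markers were at 0 counts.

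Tnfaip3 and Tnip3 stood far above the other 8 genes in both libraries. Tnfaip3 (chr10:19000910-19015657, minus strand, mm10) measured 412 TPM in replicate 1 and 387 TPM in replicate 2, a mean of 399.7 ± 18.1 (SD, n = 2), from 44454 and 44301 counts. That placed the A20 gene at rank 54 of 12140 protein-coding genes with at least 10 counts over both libraries, or the 99.6 percentile. The protein-coding genes closest to it over log2(TPM + 0.1) in the 2 libraries were Ccl3, a chemokine gene, at a distance of 0.080 (436 and 389 TPM), Rgs1, a regulator of G-protein signalling, at 0.17 (368 and 402 TPM), and Zeb2, a zinc-finger transcription factor gene, at 0.18 (364 and 399 TPM).

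The ABIN genes were spread over a wide range of levels. Tnip3 (ABIN-3, chr6:65525313-65634040, plus strand), which encodes an ABIN protein inducible by lipopolysaccharide, measured 222 and 228 TPM (225 ± 3.99, SD, n = 2), from 17664 and 17430 counts. Its level ranked 119 among the protein-coding genes. Tnip1 (ABIN-1, chr11:54910785-54962917, minus strand), which tethers A20 to its targets and recognises ubiquitin chains, measured 41.5 and 50.5 TPM (46.0 ± 6.40, SD, n = 2). Tnip2 (ABIN-2, chr5:34496087-34513991, minus strand), a subunit of the complex of the kinase TPL2 with NF-kB1, measured 12.6 and 14.8 TPM (13.7 ± 1.56, SD, n = 2). In TPM, Tnip3 exceeded Tnip1 5.35-fold in replicate 1 and 4.51-fold in replicate 2, and Tnip1 exceeded Tnip2 3.29-fold and 3.41-fold. None of these ranges overlapped. Tnfaip3 in turn exceeded Tnip3 1.86-fold and 1.70-fold. These folds depend on the table. In the transcript table made from a transcript index (index-based), summed per gene, Tnip3 (137 and 70.7 TPM) exceeded Tnip1 (46.7 and 25.2 TPM) by less. The steps from Tnip1 to Tnip2 and from Tnfaip3 to Tnip3 were wider there.

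The LUBAC genes lay at intermediate levels, and their libraries stood further apart. Rbck1 (HOIL-1, chr2:152316334-152332653, minus strand), the accessory ligase subunit, measured 17.9 TPM in replicate 1 and 29.0 in replicate 2 (23.5 ± 7.84, SD, n = 2), from 1040 and 1748 counts. Rnf31 (HOIP, chr14:55591708-55603693, plus strand), the catalytic subunit that forms the linear bond, measured 12.3 and 23.4 TPM (17.9 ± 7.86, SD, n = 2), from 1217 and 1895 counts. Sharpin (chr15:76347040-76351111, minus strand), the adaptor subunit whose loss causes dermatitis in mice, measured 11.8 and 14.1 TPM (12.9 ± 1.61, SD, n = 2), from 363 and 483 counts. For all 3 genes the higher value was that of replicate 2, and the ranges of Rbck1 and Rnf31 overlapped. The SDs of Rbck1 and Rnf31 were a large part of their means, so no order between the pair was read.

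The deubiquitinase genes other than Tnfaip3 were the lowest of the 10 in the gene-level table. Cyld (chr8:88697028-88751945, plus strand) measured 9.88 and 8.01 TPM (8.95 ± 1.32, SD, n = 2), from 1437 and 1201 counts. Otulin (chr15:27542635-27630693, minus strand), whose product trims the chains that LUBAC makes, measured 9.42 and 8.26 TPM (8.84 ± 0.820, SD, n = 2), from 350 and 334 counts, and its range overlapped that of Cyld. Otud7b (Cezanne, chr3:96104527-96161129, plus strand), an OTU-family deubiquitinase of the same family as A20, measured 2.76 and 3.59 TPM (3.17 ± 0.587, SD, n = 2), from 551 and 499 counts. It was the only one of the 10 with a mean TPM below the protein-coding median of 3.585, and the mean of Tnfaip3 was 126-fold higher. In the index-based table Tnfaip3 (317 and 140 TPM) exceeded Otud7b (4.89 and 2.11 TPM) by less.

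In the order of mean TPM (Tnfaip3, Tnip3, Tnip1, Rbck1, Rnf31, Tnip2, Sharpin, Cyld, Otulin, Otud7b), the ranges of the 2 libraries did not overlap between Tnfaip3 and Tnip3, Tnip3 and Tnip1, Tnip1 and Rbck1, Sharpin and Cyld, or Otulin and Otud7b. The other 4 neighbouring pairs overlapped. In the index-based table the order of Sharpin and Cyld was not kept. Sharpin had 6.79 against 6.87 TPM for Cyld in replicate 1, and 3.20 against 2.59 in replicate 2. Tnfaip3, Tnip3 and Tnip1 exceeded the 90 percentile of protein-coding genes (28.7 TPM), 3 of 10 where 10% of the genes ranked do so by construction, and 9 of 10 exceeded the median. Rbck1 crossed the 90 percentile only in replicate 2 by its TPM of 29.0, although its rank within that library was the 89.8 percentile.

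**Figure D1:**
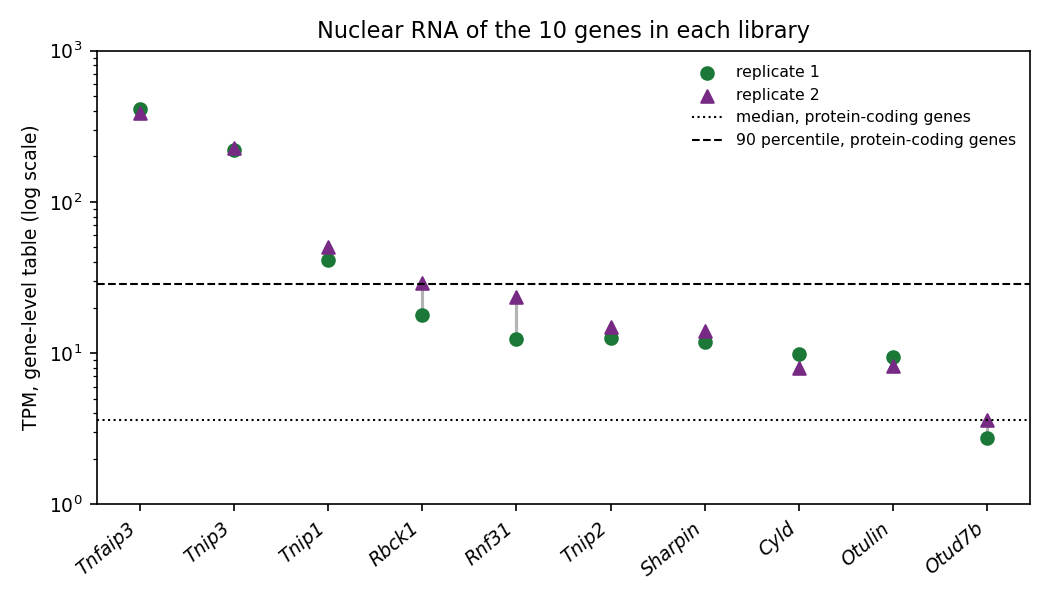
TPM of each of the 10 genes (log axis) in replicate 1 (circles) and replicate 2 (triangles), with the median and the 90 percentile of protein-coding genes as lines. Tnfaip3 and Tnip3 sit far above the other genes in both libraries, Tnip1 above the 90 percentile of 28.7 TPM, and Otud7b near the median of 3.585 TPM.

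Between the libraries, the 10 genes were compared as log2 ratios of scaled counts, replicate 2 over replicate 1, with 95% intervals that cover counting error only. With 1 library against 1, no p-value can be given. In such bulk RNA, more cells of a type and more RNA per cell cannot be told apart. None of the 10 differed by 2-fold, a difference met by 1.97% of 8641 genes with at least 100 counts in both libraries. The median ratio of the 10 was 0.07, with 5 above and 5 below 0, beside a median of -0.04 over the 8641 genes, whose 5 to 95 percentile range was -0.56 to 0.66.

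Tnfaip3 and Tnip3 were the most precisely counted and differed least, at -0.08 (interval -0.10 to -0.06) and -0.09 (-0.12 to -0.06). Rbck1 had the largest ratio, 0.68 (0.57 to 0.79), or 1.60-fold (1.48 to 1.73). It was the only one of the 10 past 1.5-fold, which 10.9% of all the genes reached in either direction and 6.58% with the higher value in replicate 2. Rnf31 followed at 0.57 (0.46 to 0.67), or 1.48-fold, and Sharpin at 0.34 (0.14 to 0.54), so that all 3 LUBAC genes were counted more often in replicate 2. Tnip1 stood at 0.25 (0.16 to 0.33) and Tnip2 at 0.21 (0.04 to 0.39).

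Otulin, Cyld and Otud7b lay on the other side of 0. Cyld had the lowest ratio, -0.33 (-0.44 to -0.22), and Otud7b stood at -0.21 (-0.39 to -0.04). The interval of Otulin, -0.36 to 0.08, included 0. Only Rbck1 fell outside the 5 to 95 percentile range of all genes. The index-based counts gave 0.66 for Rbck1, 0.55 for Rnf31, 0.16 for Sharpin, -0.26 for Cyld and -0.19 for Otud7b, each on the same side of 0, while Tnip3 moved to 0.05.

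**Figure D2:**
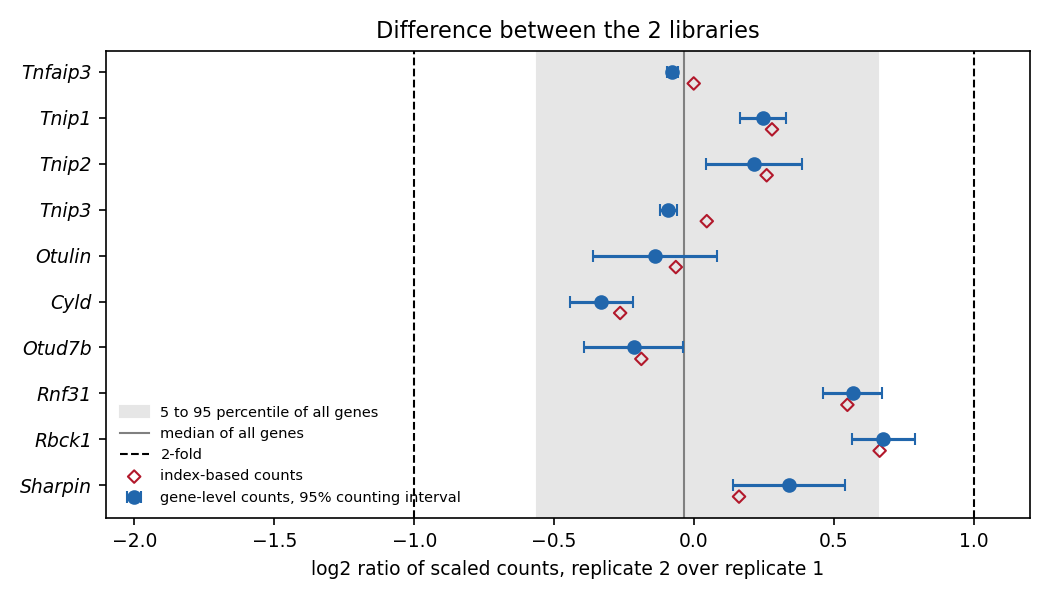
Log2 ratio of scaled counts, replicate 2 over replicate 1, for each of the 10 genes, with the 95% counting interval (filled points, gene-level counts) and the index-based value (diamonds); the grey band is the 5 to 95 percentile range of all genes with 100 counts in both libraries, the grey line their median and the dashed lines 2-fold. No gene reaches 2-fold, and Rbck1 and Rnf31 lie furthest to the right.

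TPM and counts did not always give the same picture of these differences. For Rnf31, TPM was 1.90-fold higher in replicate 2 while scaled counts were 1.48-fold higher, and the effective length assigned to the gene was 2977 bases in replicate 1 and 2367 in replicate 2. Otud7b was higher in replicate 2 by TPM (1.30-fold) and lower by scaled counts (0.862-fold), with effective lengths of 6012 and 4071 bases. Its transcripts range from 503 to 8101 bases, and the effective length enters TPM but not the count.

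Some of the 10 genes share ground with other genes. The strand used in counting is, in the sources used here, not given. Rnf31 overlaps Irf9, an interferon-signalling transcription factor gene, by 123 bases on the same strand, and lies 594 bases from Psme2, a proteasome activator gene on the opposite strand. Irf9 had 1807 and 1914 counts (1.01-fold after scaling) and Psme2 1366 and 2435 (1.70-fold). The part of these neighbours in the ratio of Rnf31 was not tested. Ank, a membrane transporter gene on the opposite strand, overlaps Otulin by 52275 bases and had 174 and 201 counts against the 350 and 334 of Otulin. The microRNA gene Mir7117, also within Otulin, had 0 counts.

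The processed pseudogene Gm12230 lies within Tnip1 and had 94 and 179 counts. Gm17995 and Gm17910, processed pseudogenes within Cyld, had at most 14 counts. Gpx3, 407 bases from Tnip1, had 277 and 446 counts, and Mtmr11, 874 bases from Otud7b, had 19 and 31. Maf1 and Cyc1, 182 and 779 bases from Sharpin, had 151 and 208 counts in replicate 1 and 209 and 272 in replicate 2, beside 363 and 483 for Sharpin.

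The 82 transcripts of the 10 genes comprised 39 annotated as protein-coding, 27 as retained-intron transcripts, 4 as targets of nonsense-mediated decay and 12 as other processed transcripts. Of these, 14 were at 0 in both libraries by the alignment-based table and 8 by the index-based one, and 5 were at 0 throughout, namely Tnip2-201, Rnf31-205, Rnf31-206, Sharpin-206 and Sharpin-207. Shares below are percents of a gene's summed transcript TPM. A transcript annotated as retaining an intron and a precursor not yet spliced share the same intron sequence, and in nuclear RNA they cannot be told apart here.

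Coding transcripts held more than 50% of TPM in both libraries for 7 of 10 genes, against 78.9% of 7834 protein-coding genes with 100 counts in both libraries. The exceptions were Sharpin (19.2% and 19.6%), Tnip3 (27.5% and 19.2%) and Rnf31 (63.6% and 46.8%). By the index-based table only 3 of 10 passed, Tnfaip3, Otulin and Cyld, against 67.7% of genes. Tnip1 (49.6% and 57.7%), Tnip2 (42.3% and 39.2%) and Rbck1 (52.2% and 44.6%) did not pass there. By the alignment-based table Otud7b (86.9% and 78.3%) and Otulin (77.5% and 82.6%) had the highest coding shares. Neither has a retained-intron transcript in the annotation. In Otulin the remainder, 22.5% and 17.4%, was a single transcript annotated as a target of nonsense-mediated decay, Otulin-203. In the index-based table the coding share of Otud7b was 49.8% and 46.0%, the rest lying in short processed transcripts led by Otud7b-208.

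**Figure D3:**
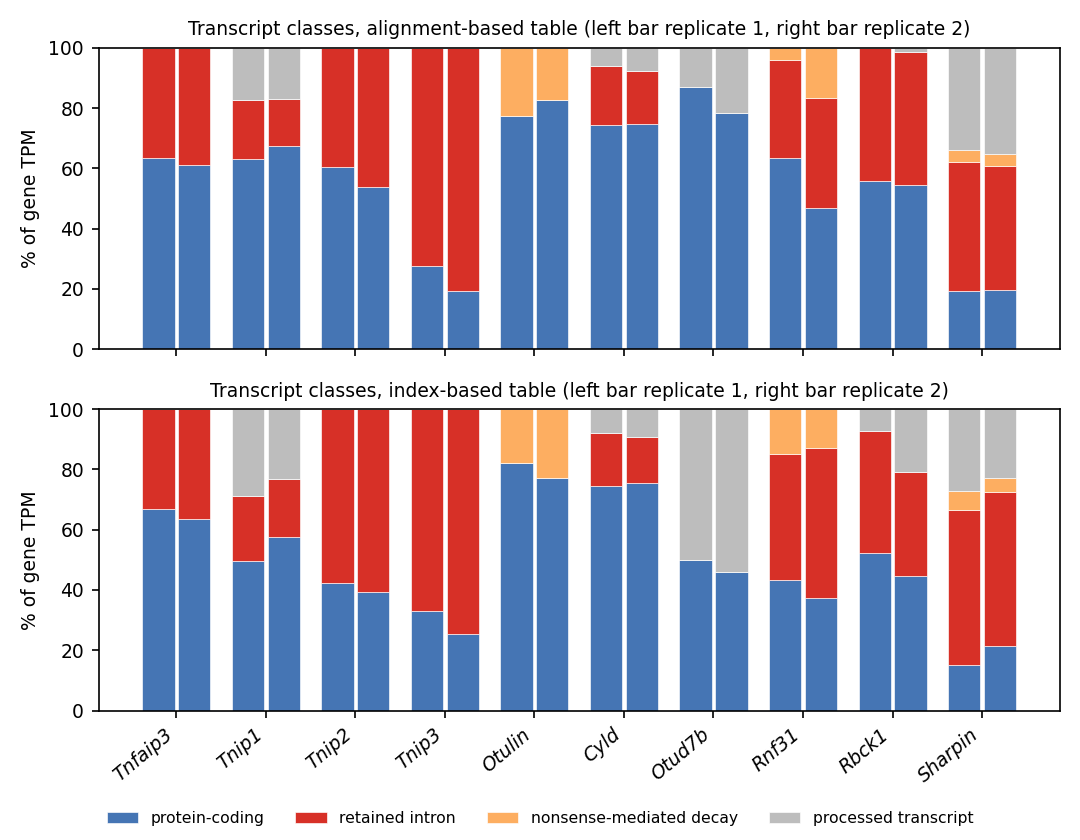
Percent of each gene's transcript TPM in protein-coding, retained-intron, nonsense-mediated-decay and other processed transcripts, in replicate 1 (left bar) and replicate 2 (right bar), by the alignment-based table (top) and the index-based table (bottom). Retained-intron transcripts take most of Tnip3 in all 4 bars, and Sharpin and Tnip3 have the smallest coding shares in each library and table.

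Retained-intron transcripts exceeded 50% of TPM in both libraries for 1 of the 8 genes that have one annotated, Tnip3, against 8.81% of 5156 such protein-coding genes. In Tnip3 they took 72.5% and 80.8% (76.6 ± 5.89, SD, n = 2), at the 98.5 percentile of those genes. By counts, which are not divided by length and so weigh long transcripts more, the share was 68.5% and 72.6%. The index-based table gave 67.0% and 74.6% of TPM. So the second most abundant of the 10 genes was measured for the greater part as intron-holding RNA by each of these readings. By the index-based table Tnip2 (57.7% and 60.8%) and Sharpin (51.4% and 51.0%) passed 50% as well, 3 of 8 genes against 13.6%. By counts Tnip3 and Sharpin passed, 2 of 8 against 7.49%.

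Among the other 7 genes the shares were lower in the alignment-based table. Rbck1 held 44.3% and 44.2%, Tnip2 39.7% and 46.2%, Sharpin 42.8% and 41.2%, Tnfaip3 36.6% and 39.0% and Rnf31 32.2% and 36.6%. Tnip1 (19.6% and 15.9%) and Cyld (19.7% and 17.3%) lay just below the median of 21.4% over the 5156 genes. The 6 other genes, Tnip3 included, lay above it.

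The size of a share depended on the table and on whether TPM or counts were read. The index-based table raised the share of Rnf31 to 41.7% and 49.6% as well as that of Tnip2, and lowered that of Rbck1 to 40.5% and 34.5%. The Tnip2 share was 14.7% and 19.8% by counts, and that of Tnip1 2.80% and 2.58%, since their retained-intron models are short (383 to 900 bases in Tnip2 and 442 in Tnip1) and weigh more in TPM. Sharpin went the other way, with 61.6% and 58.3% by counts. The count share of Tnfaip3 was 27.9% and 31.7%, and the median over the 5156 genes was 11.2%.

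**Figure D4:**
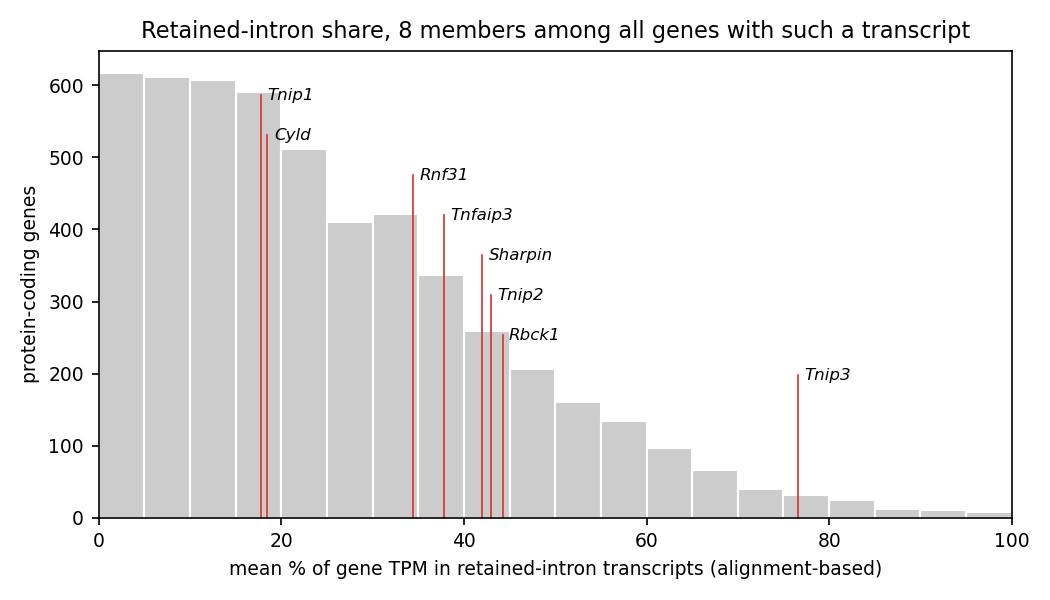
Histogram of the mean retained-intron share of TPM (alignment-based table) over 5156 protein-coding genes with such a transcript and 100 counts in both libraries, with the 8 genes that have one as red lines whose height carries no value. Tnip3, at 76.6%, lies in the thin upper tail, and Tnip1 and Cyld lie just below the median of 21.4%.

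The introns concerned can be read from the annotation. Tnfaip3-205 (53.7 and 59.7 TPM) holds introns 5 and 7 of the 8 introns of Tnfaip3-201 whole, at chr10:19005732-19006862 (1131 bases) and chr10:19003758-19004456 (699 bases). Tnfaip3-206 (97.1 and 91.2 TPM) is a 764-base model that reaches 510 bases into the 3145 bases of intron 2. By counts, which weigh long models more, the 6199-base Tnfaip3-205 was the larger, with 10644 and 12254 counts against 1760 and 1792. By TPM Tnfaip3-206 was the larger in both libraries.

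Tnip3-206 (50.1 and 52.8 TPM), the retained-intron transcript with the most counts of its gene, holds intron 1 of 7 whole, at chr6:65590653-65593468 (2816 bases), and 60.6% of intron 2. Tnip3-204 (51.0 and 41.3 TPM) holds 95% of intron 4. Tnip3-203 (39.0 and 54.8 TPM) and Tnip3-205 (20.7 and 35.0 TPM) end a short way into introns 2 and 5. So the intron-holding RNA of Tnip3 was assigned to models that cover several introns of Tnip3-201, and no single model held most of it by TPM. By counts Tnip3-206, the longest of these models at 4627 bases, held 60.6% and 63.2% of it.

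In the other genes, Rbck1-203 (4.70 and 8.20 TPM) holds intron 6 of 11 whole, at chr2:152323333-152324266 (934 bases). Rnf31-203 (2.20 and 3.32 TPM) holds introns 7, 8 and 11 of 20, of 168, 246 and 1779 bases. Cyld-207 (1.11 and 0.71 TPM) holds intron 7 of 16 (817 bases). The whole introns held by the detected Sharpin transcripts are short, from 69 to 251 bases. Each intron covered in whole or part lies between coding exons of the gene's leading coding transcript.

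The ends of the wholly held introns are shown for Tnfaip3 and Tnip3, the most abundant of the genes. They are also shown for Rbck1, the LUBAC gene with the largest difference between libraries. In Tnfaip3 and Tnip3, models that hold only parts of introns took the larger part of the retained-intron TPM. Each line runs 5′ to 3′ on the gene's strand (mm10), with intron bases in capitals and exon bases in lower case. Every intron shown begins with GT and ends with AG, the usual bases of spliced introns, as did all wholly held introns of the 8 genes.
Tnfaip3 intron 5, 5′ end (chr10:19006843-19006872, minus strand): agtggacctgGTAAGAAAACATCAGTTCCT
Tnfaip3 intron 5, 3′ end (chr10:19005722-19005751, minus strand): TTTTTTTTTTTCCCCTTCAGaacttcgcgc
Tnfaip3 intron 7, 5′ end (chr10:19004437-19004466, minus strand): gaaaataagcGTGAGTGAAATCAGAGATTG
Tnfaip3 intron 7, 3′ end (chr10:19003748-19003777, minus strand): TAGCATCCCCTCTTTTGTAGagtctgttac
Tnip3 intron 1, 5′ end (chr6:65590643-65590672, plus strand): gcacacagagGTAAGAGCATGTGTCAGGTT
Tnip3 intron 1, 3′ end (chr6:65593449-65593478, plus strand): TATTATTATTATCTTTAAAGtgtgctccac
Rbck1 intron 6, 5′ end (chr2:152324247-152324276, minus strand): gtaccagcagGTGGGCACACAGGTCCAGGG
Rbck1 intron 6, 3′ end (chr2:152323323-152323352, minus strand): CGCCCTGCCCATGTGCCCAGcggaaacagc

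**Figure D5:**
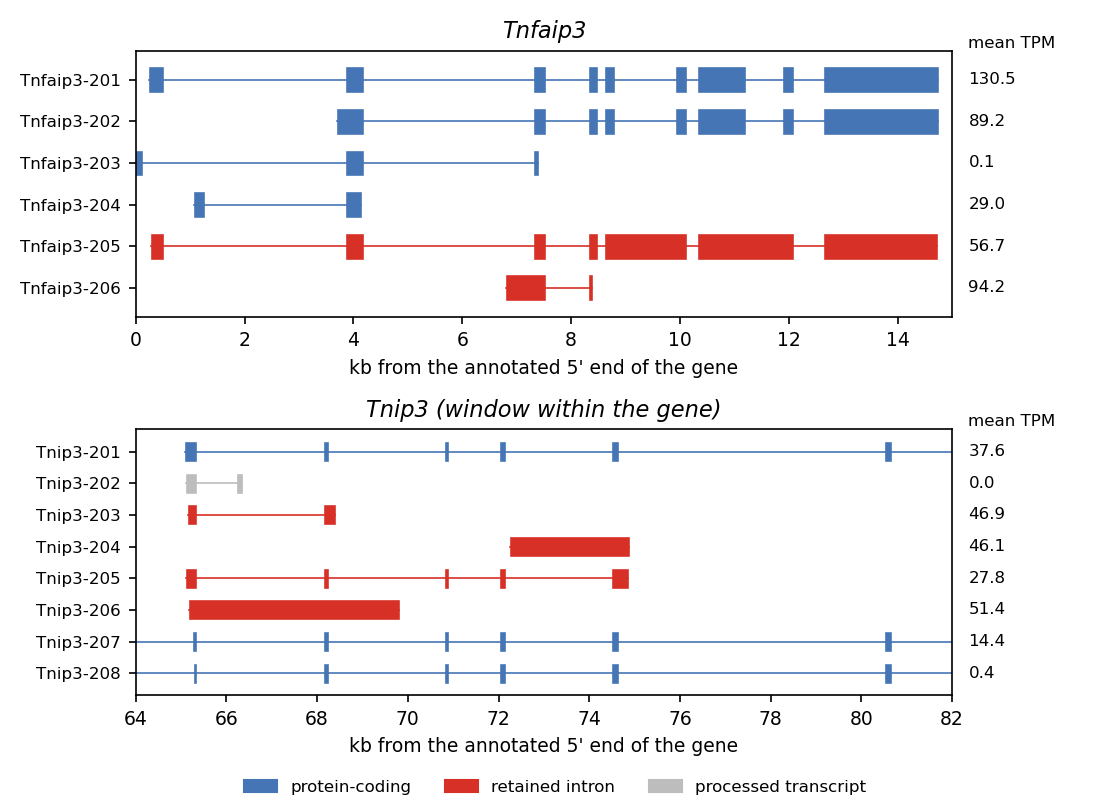
Exons (boxes) and introns (lines) of the annotated transcripts of Tnfaip3 (whole gene) and of Tnip3 (64 to 82 kb from its annotated 5′ end, leaving out distant first exons and the last exons), with the mean TPM of each transcript in the alignment-based table at the right and its class by colour. In Tnip3, 3 of the 4 red retained-intron models have 46.1 to 51.4 TPM each, beside 37.6 TPM for the coding transcript Tnip3-201.

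The leading coding transcripts of Tnfaip3 differ in their first exon and share a coding sequence of 775 codons. Tnfaip3-201, which starts at position 19015410, measured 120.45 and 140.48 TPM in replicates 1 and 2. Tnfaip3-202, which starts 3447 bases further into the gene, measured 109.9 and 68.5 TPM. Tnfaip3-201 was thus the higher in both libraries of the alignment-based table, while in the index-based table Tnfaip3-202 led in replicate 1 (72.8 against 52.4 TPM) and Tnfaip3-201 in replicate 2 (29.7 against 23.4 TPM). No order between these starts was kept by both tables in both libraries. The 456-base model Tnfaip3-204, with an incomplete coding sequence, took 31.0 and 27.0 TPM in the alignment-based table and was the highest transcript of the gene, at 86.5 and 35.1 TPM, in the index-based one.

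Tnip3 showed a like uncertainty about its starts. Tnip3-201, which starts at position 65590398 and encodes 208 codons, measured 39.0 and 36.2 TPM in the alignment-based table. Tnip3-207, whose start lies 65.0 kb upstream and whose coding sequence has 279 codons, measured 21.8 and 7.02 TPM. In the index-based table the order was reversed in both libraries, with 28.0 and 10.9 TPM for Tnip3-207 against 17.0 and 6.75 TPM for Tnip3-201. By counts, which weigh long transcripts more, Tnip3-201 (3769 bases) led Tnip3-207 (1543 bases) in both tables. It had 4598 and 4424 against 957 and 325 in the alignment-based one. In the index-based one it had 5207 and 3736 against 3259 and 2289.

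In the other genes a single coding transcript led in both libraries of the alignment-based table. It was Tnip1-205 (18.4 and 20.9 TPM, 594 codons), Tnip2-202 (5.96 and 7.98 TPM, 430 codons), Rnf31-201 (7.84 and 10.96 TPM, 1066 codons), Rbck1-202 (9.36 and 14.9 TPM, 508 codons), Sharpin-201 (1.94 and 2.76 TPM, 380 codons), Otulin-201 (7.30 and 6.82 TPM, 352 codons), Cyld-206 (4.83 and 3.80 TPM, 952 codons) and Otud7b-201 (1.49 and 1.72 TPM, 840 codons). The differences of Rbck1 and Rnf31 between the libraries were thus also present in their leading coding transcripts. For Rbck1 the retained-intron transcript Rbck1-203 differed in the same direction, and the retained-intron share of the gene was nearly equal in the libraries.

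RefSeq promoters (GRCm38.p6, 250 bases before to 50 after the start) were found for 8 of the 10 genes, in 10 entries. Sharpin and Otud7b had no entry. They were searched on both strands for the NF-kB site consensus, written here by name, and for GAAA followed after any 2 bases by GAAA, a repeat found in interferon-stimulated response elements. The motifs were chosen after these sequences had been read, so their matches describe letters and are no sign of a bound factor. The NF-kB consensus was present for Tnfaip3, Tnip1, Tnip3 and Cyld, 4 of 8 genes, while 9.55% of 27025 genes with a promoter entry hold it. The GAAA repeat was present for Rbck1 alone, and 3.99% of the genes hold it.

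Tnfaip3, Tnip1 and Tnip3, which hold the NF-kB consensus, were also the 3 genes above the 90 percentile in level, and Cyld, the fourth, was not. A link between motif and level was not tested, and the motif was chosen with these sequences already read. The 100 bases before the start of these 3 genes and of Rbck1 are printed 5′ to 3′ on the gene's strand (GRCm38.p6) with the matches in capitals. The Tnfaip3 match lies 12 to 3 bases before the start, and another lies outside the stretch shown. In Tnip1 a run of 12 bases holds 3 overlapping matches, of which the middle one reads the same on both strands. The Tnip3 match does not, but meets the consensus on either strand. The capitals of Rbck1 are the reverse complement of the GAAA repeat.
Tnfaip3 (chr10:19015411-19015510, minus strand): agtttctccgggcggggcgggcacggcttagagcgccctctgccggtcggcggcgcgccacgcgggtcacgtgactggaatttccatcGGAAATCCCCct
Tnip1 (chr11:54962941-54963040, minus strand): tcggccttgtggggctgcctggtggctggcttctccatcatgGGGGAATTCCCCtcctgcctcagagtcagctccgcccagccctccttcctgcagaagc
Tnip3 (chr6:65590298-65590397, plus strand): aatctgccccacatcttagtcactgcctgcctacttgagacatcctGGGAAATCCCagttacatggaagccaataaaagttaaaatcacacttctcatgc
Rbck1 (chr2:152332426-152332525, minus strand): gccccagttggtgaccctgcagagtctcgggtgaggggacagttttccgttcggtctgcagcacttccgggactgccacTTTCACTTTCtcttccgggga

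The promoter entry of Tnip3 is that of the downstream start, from which Tnip3-201 is transcribed. The printed Tnfaip3 stretch directly precedes the annotated start of Tnfaip3-201, the coding transcript that led in the alignment-based table. Tnfaip3-203, which starts upstream of Tnfaip3-201, had 0.26 and 0 TPM there as a whole transcript.

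The genes around A20 and LUBAC were set beside the 10 from lists of their pathway. Of 14 partners of A20 and ligases or conjugating enzymes of the pathway, 5 exceeded the 90 percentile in level and all 14 exceeded the median, with a median of 20.9 TPM. The highest were Birc3, an inhibitor-of-apoptosis ubiquitin ligase (101 and 119 TPM), and Ube2d3, a ubiquitin-conjugating enzyme (88.9 and 79.5 TPM). The lowest was Traf6, the ligase that relays Toll-like receptor signals (8.11 and 7.95 TPM). All 14 had at least 100 counts in both libraries, and none passed 2-fold, which 1.97% of 8641 such genes did. Of the ratios, 3 lay above 0 and 11 below, with a median of -0.20 beside -0.04 over the 8641 genes. The lists described below were counted likewise, over their genes with 100 counts in both libraries. The other OTU deubiquitinases had 3 ratios above 0 and 6 below, the readers 2 and 8, and the IkB-type inhibitors 3 and 3.

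Tnfaip3 thus exceeded every one of its listed partners. Of 13 other OTU deubiquitinases, 1 exceeded the 90 percentile, and the median was 2.60 TPM. Otud5 (35.0 and 39.2 TPM) and Vcpip1 (20.4 TPM in each library) were the highest, and Otud7a, the closest relative of Otud7b, had 0 counts in both libraries. Otulinl, a relative of Otulin without its catalytic activity, and Spata2, which bridges CYLD to LUBAC, are named after their values were seen. Otulinl measured 8.47 and 12.2 TPM, beside the 9.42 and 8.26 TPM of Otulin.

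Among 11 readers of ubiquitin chains and partners of LUBAC or CYLD, the median was 10.6 TPM and 1 exceeded the 90 percentile. It was Ikbkb, the IKK beta kinase gene (36.8 and 37.4 TPM), followed by Tab2, a chain-binding adaptor of the kinase TAK1 (30.0 and 24.4 TPM). The lowest was Spata2l (0.28 and 0.27 TPM). With 100 counts in both libraries, 8 of the partners, 5 OTU genes and 6 readers have a retained-intron transcript annotated. Ikbkb was the only one of them with a mean retained-intron share over 50%, at 55.6%. Otud5 (49.96%) and Chuk (49.6%) lay just below 50%. Of 5156 such protein-coding genes, 8.81% passed 50% in both libraries. Spata2 measured 8.50 and 7.08 TPM, near the 9.88 and 8.01 TPM of Cyld. Of these 11 genes 10, and of the 13 OTU genes 9, had the 100 counts in both libraries that a call needs. None of those passed 2-fold, which 1.97% of 8641 such genes did.

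Nfkbia, the gene of IkB alpha and the highest of 6 IkB-type inhibitors of NF-kB, measured 289.8 and 399.4 TPM beside the 412 and 387 TPM of Tnfaip3. The ranges of these genes overlapped. The retained-intron share of Nfkbia was 4.96%, against 37.8% for Tnfaip3, a gene of like level in this nuclear RNA. It was 76.6% for Tnip3, whose level, at 222 and 228 TPM, lay below both. Nfkbia had the lowest share of the 4 IkB-type genes with such a transcript. The highest, 45.6% in Nfkbie, exceeded that of Tnfaip3.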

How the data were processed

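Ribosomal-RNA-depleted nuclear RNA was measured in 2 libraries of 1 group. The authors deposited expected counts (estimates, not always whole numbers) and TPM per gene and per transcript from alignments to the transcriptome, and estimated counts and TPM per transcript from a transcript index, per the file headers with mm10 and GENCODE M21. No aligner, quantification tool, version or use of strand is given in the sources used here. The 26345 rows that name no gene (0.144% and 0.0810% of counts) were left out.

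Expected counts were rounded and scaled by TMM (edgeR 4.0.16, R 4.3.3; Python 3.11.15). Ratios are replicate 2 over replicate 1 with 0.5 added to each count, and their Clopper-Pearson 95% intervals cover counting error only. A gene was called at 2-fold with at least 100 counts in both libraries. The quasi-likelihood test of edgeR could not be fitted with 1 library against 1, so no p-value is given. The ratio step was tested on simulated data whose spread was counting error only. That test says nothing about the larger spread between these libraries. Levels were ranked among protein-coding genes with at least 10 counts over both libraries. Index-based TPM is on another scale, with 14.5% and 7.04% of it in transcripts of protein-coding genes. Its levels were therefore not compared between libraries, and a mean over both is given only as an alternative.

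The 10 genes were chosen by name, not by any measured value. The gene lists set beside them were chosen with earlier results of these data known. In the lists of partners, OTU enzymes and readers the 2 highest, the lowest and any gene past 2-fold were named, with the highest IkB-type gene, the 3 genes nearest to Tnfaip3 over log2(TPM + 0.1), and genes within 1000 bases. Alternatives covered the scaling, count minimum, fold, transcript table, share unit, pseudocount and each library left out.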

Additional observations from a re-analysis of the deposited data

How the results depend on the processing

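The median level of the 10 genes was 15.8 TPM. It was 73.2 after rescaling TPM to protein-coding genes. The index-based table gave 8.16 TPM, a mean over libraries whose scales differ there, and it also shifted genes against each other, from 0.575 of the gene-level TPM for Sharpin to 1.77 for Otud7b in replicate 1. The median was 12.5 to 19.1 with either library left out. With no filter on low values 5 in place of 3 genes exceeded the 90 percentile, since that setting ranks them among more genes. At 1.5-fold 1 of the 10 genes was called, beside 10.9% of 8641 genes. At 2-fold 0 were called under each other scaling, count minimum and count table tried. Over all genes, 2-fold calls numbered 170 of 8641 (1.97%), and 721 of 13831 (5.21%) with a minimum of 10 counts. They numbered 6276 of 22514 (27.9%) with no minimum and 376 of 12080 (3.11%) from index-based counts. The median retained-intron share was 39.9% of TPM, 41.6% in the index-based table, 30.4% of expected counts, and 38.1% to 40.1% with either library left out. The median coding share was 59.6% of TPM, 48.1% in the index-based table and 76.5% of expected counts. No paired analysis was possible because there is 1 group and nothing to pair. With 2 libraries, leaving out either always leaves a single gene's value within 1 SD, so this says nothing about stability. The genes with the fewest counts (Otulin, Sharpin, Otud7b and Tnip2) have the widest intervals.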
